A study of Mus musculus with 8 samples.

Results

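The 9 genes described here encode 6 chemokine receptors (Cxcr4, Cx3cr1, Ccr2, Cxcr2, Ccr1 and Ccr9), the selectin ligand Selplg, the hyaluronan receptor Cd44 and the sphingosine 1-phosphate receptor S1pr1. They were taken by symbol from a table of 54532 genes, and all 9 were found. RNA was sequenced from LSK cells of the bone marrow of C57BL/6 mice, the lineage-negative, Sca-1 positive and c-Kit positive fraction that contains blood stem cells and multipotent progenitors. The data comprise 3 libraries with the genotype Runx1-Runx1t1 (AML1/ETO, the fusion made by the t(8;21) translocation of acute myeloid leukaemia) and 5 control libraries labelled WT. Mice of both groups had been given poly(I:C), a synthetic double-stranded RNA that induces interferon, at 5 mg/kg in 4 injections on alternate days, with sorting 4 weeks after treatment. The control mice therefore shared the strain and the poly(I:C) treatment and lacked the fusion. What drives the fusion allele, the age of the mice, and whether a library came from 1 animal or several were not stated in what was available here.

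Blood stem and progenitor cells are held in the marrow, and find it again after transplantation, through the receptor CXCR4, which senses the stromal chemokine CXCL12 and signals through Gi proteins. Entry from the blood begins with rolling on endothelial selectins, which bind sialylated glycans carried by PSGL-1 (the product of Selplg) and by glycoforms of CD44, and goes on with integrin adhesion. Sphingosine 1-phosphate in blood and lymph draws cells out of tissues through S1PR1, while CCR2, CXCR2, CX3CR1 and CCR1 are best known from monocytes and neutrophils and CCR9 from progenitors that settle in the thymus.

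Counted reads per library ranged from 14693080 to 16433454 with the fusion and from 16374232 to 17527043 without. Runx1t1, the gene joined to Runx1 in the fusion, was at 94.1 ± 36.0 CPM (counts scaled to a common library size, with SD, n = 3) with the fusion and 3.78 ± 2.72 CPM (n = 5) without, with no overlap. Reads of the fusion and of the native gene cannot be told apart in these counts. Sex-linked genes separated the same libraries: reads of Xist numbered 28559 to 33151 with the fusion against 0 to 111 without, and those of Ddx3y 0 against 3688 to 5038, so fusion and sex cannot be told apart. Of 10 marker genes of LSK cells 8 were higher and 1 lower in the AML1/ETO libraries, against 11.6% higher and 14.2% lower among all tested genes. Among them Kit was at 1386 ± 416 against 431 ± 38.0 CPM and Ly6a, which encodes Sca-1, at 221, 256 and 921 against 8.26 to 23.4 CPM. The lower marker was Mecom, at 11.4 ± 0.429 against 60.7 ± 21.2 CPM. Of 15 immediate early genes, which are induced within minutes of stimulation or handling, 12 were higher and 0 lower, with a median log2 difference of 3.20. Their part in the results on the homing genes was not tested. Since nothing in the labels ties each replicate to its own animal, p-values speak only of the spread among these libraries, which may be technical.

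Transcripts of Cxcr4, Cd44, Cx3cr1 and Cxcr2 were lower in the AML1/ETO libraries, and those of none of the 9 genes were called higher. Cxcr4 fell 4.06-fold and Cd44 10.9-fold, and Cx3cr1 and Cxcr2 had no read at all with the fusion. Ccr2, Ccr1, Ccr9, Selplg and S1pr1 did not pass the test, at an adjusted p under 0.05 in edgeR's quasi-likelihood test with Benjamini-Hochberg adjustment over all genes tested. All 9 genes were among the 15009 tested, of which 14.2% were called lower and 11.6% higher, so 4 of 9 lower stands beside a background of 14.2%, and 0 of 9 higher beside 11.6%. Higher genes made up 44.9% of all calls, and 34.2% when library totals alone were used for scaling; the calls of the 9 genes were the same in both. In 5 of the 9 genes every AML1/ETO library was below every control (Cxcr4, Cd44, Cx3cr1, Cxcr2 and Ccr2), against 17.5% of all tested genes, and in 0 every AML1/ETO library was above every control, against 14.1%. The median log2 difference, AML1/ETO over control, was -2.58 over the 9 genes and -0.09 over all tested genes, with the 3 genes that had no AML1/ETO read set at a floor of 3 reads per library. That median of the 9 genes is the bound of Ccr1, which did not pass, so it depends on the floor. With fitted values in place of bounds it was -3.06, the value of Ccr2, which did not pass either. Ccr1, Cxcr2 and Cx3cr1 passed the filter on low counts through the control libraries only. In bulk RNA, fewer cells of a type and less RNA per cell cannot be told apart.

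**Figure D1:**
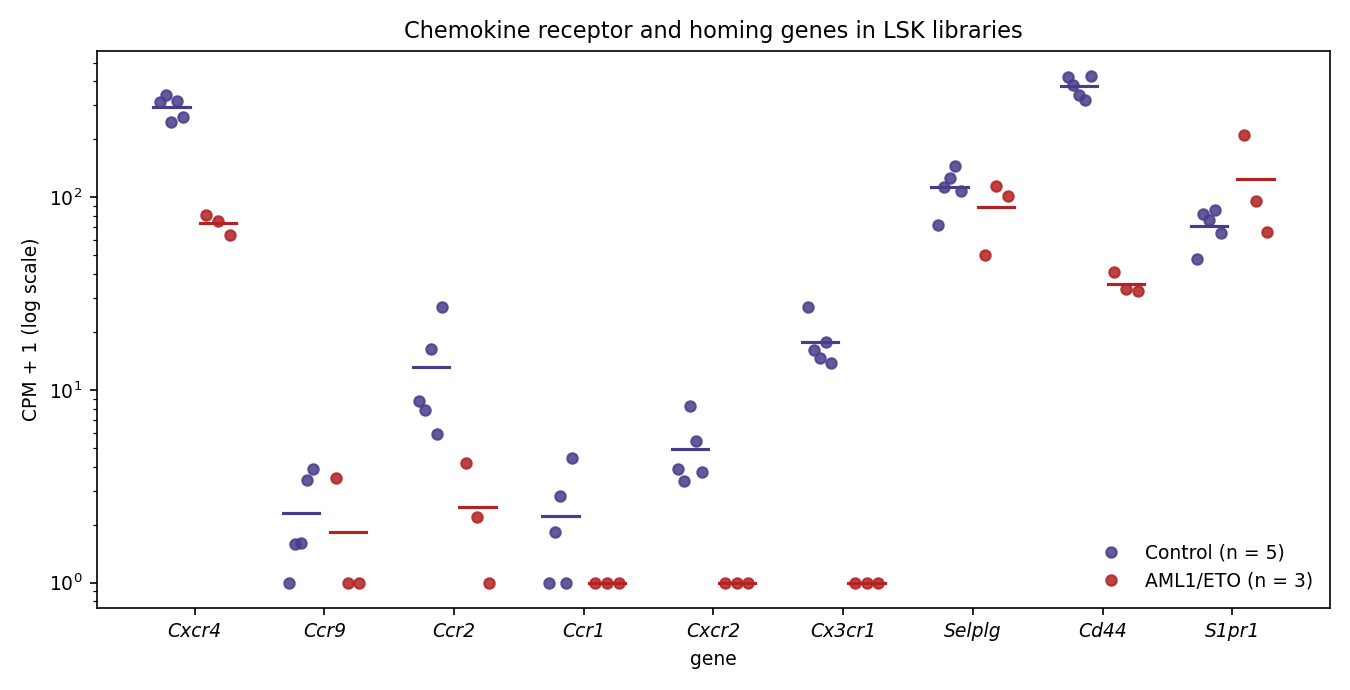
CPM plus 1 (log scale, y axis) of the 9 genes (x axis) in each library, with control libraries in blue, AML1/ETO libraries in red and horizontal lines at the group means. The AML1/ETO points lie below all control points for Cxcr4, Ccr2, Cxcr2, Cx3cr1 and Cd44, while Ccr9, Ccr1, Selplg and S1pr1 overlap between the groups.

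Cxcr4 (ENSMUSG00000045382, chr1:128588199-128592293, minus strand, mm10) encodes the CXCL12 receptor. It was at 311, 337, 245, 317 and 259 CPM in controls 1 to 5 and at 80.3, 74.3 and 62.5 CPM in AML1/ETO libraries 1 to 3, with 956 to 1189 reads behind each AML1/ETO value. All 3 AML1/ETO libraries were close together, and the lowest control was far above the highest of them, with no overlap. The means were 294 ± 39.7 CPM (SD, n = 5) in controls and 72.4 ± 9.02 CPM (n = 3) with the fusion, a log2 difference of -2.02 with a standard error of 0.18 (edgeR adjusted p = 1.26e-05). Per kilobase of exon, Cxcr4 ranked above 98.6% of tested genes in controls and above 91.9% with the fusion, so it remained among the well expressed genes.

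Cx3cr1 (ENSMUSG00000052336, chr9:119901616-120069879, minus strand), the receptor of the membrane-bound chemokine fractalkine, had 442, 257, 247, 287 and 224 reads in controls 1 to 5 and 0 reads in each AML1/ETO library. All 5 controls were thus far from 0, at 16.8 ± 5.26 CPM, and the AML1/ETO mean was at least 82.6-fold lower, taking 3 reads per library as the floor (edgeR adjusted p = 3.84e-05). Of genes for which the other libraries of the same group led to an expectation of 200 to 500 reads, 0.282% to 0.751% were at 0 in an AML1/ETO library. The exons of Cx3cr1 overlap an antisense transcript, Gm33858, which had 178 reads over all 8 libraries, and it is not known here whether reads were counted by strand.

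Ccr2 (ENSMUSG00000049103, chr9:124101950-124113557, plus strand) encodes the CCL2 receptor with which monocytes leave the marrow. It had 42, 19 and 0 reads in the AML1/ETO libraries and 133, 117, 279, 84 and 452 in the controls, or 3.18, 1.19 and 0 CPM against 7.78, 6.86, 15.3, 4.89 and 25.9 CPM. Every AML1/ETO library was below every control, but the controls themselves were spread widely, with control 5 above the other 4. The means of 1.46 ± 1.61 and 12.2 ± 8.66 CPM differed by -3.06 on the log2 scale with a standard error of 1.13, which did not pass (edgeR adjusted p = 0.0672). The difference passed without AML1/ETO library 1 (-4.34, adjusted p = 0.0271), without the first library of both groups (-4.46, adjusted p = 0.0319) and with DESeq2 (-2.99, adjusted p = 0.0124).

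Cxcr2 (ENSMUSG00000026180, chr1:74153989-74161246, plus strand), the receptor with which neutrophils answer CXCL1 and CXCL2, had 49, 40, 132, 76 and 48 reads in controls 1 to 5 and 0 in each AML1/ETO library. Control 3 was the highest and no control was at 0. The control mean was 3.93 ± 2.02 CPM and the AML1/ETO mean at least 19.3-fold lower (edgeR adjusted p = 0.00527). At this depth a single 0 says less than for Cx3cr1: of genes expected at 50 to 100 reads, 16.1% to 22.1% were at 0 in an AML1/ETO library, 19.6% in control 1 and 0.648% to 6.36% in the other controls.

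The last pair of receptors sat near the detection limit. Ccr1 (ENSMUSG00000025804, chr9:123962124-123968692, minus strand), which binds CCL3, CCL5 and CCL9, had 0 reads in each AML1/ETO library and 0, 14, 33, 0 and 60 in the controls. Ccr9 (ENSMUSG00000029530, chr9:123678439-123784330, plus strand), the CCL25 receptor, had 33, 0 and 0 reads with the fusion and 0, 10, 11, 41 and 50 in the controls. For both genes the groups overlapped and neither difference passed (edgeR adjusted p = 0.110 and 0.879), so none was detectable at this depth. The Ccr9 value rested on AML1/ETO library 1, the one AML1/ETO library with reads of the gene.

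**Figure D2:**
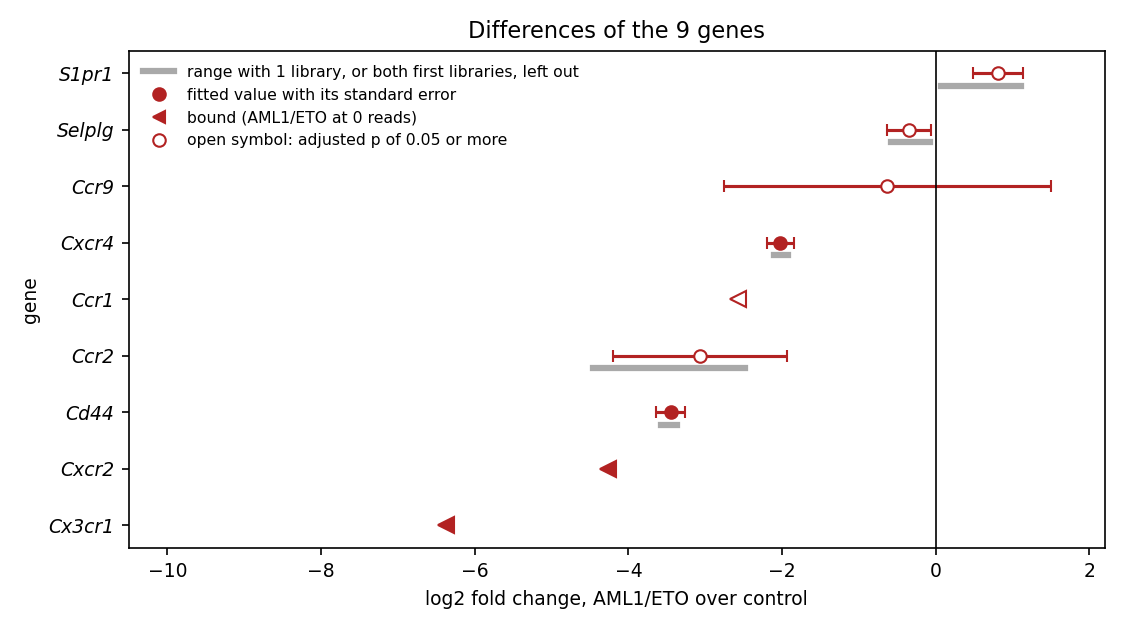
Log2 fold change of the 9 genes, AML1/ETO over control (x axis), with filled symbols for an adjusted p under 0.05 and open symbols otherwise; circles carry the standard error, triangles mark the bound for genes at 0 reads in all AML1/ETO libraries, and grey bars span the values with 1 library, or both first libraries, left out (not drawn for Ccr9 and the bounded genes). The bars of Cxcr4 (-2.11 to -1.93) and Cd44 (-3.57 to -3.37) are short, and that of S1pr1 runs from 0.07 to 1.11.

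Promoter sequence is shown for the 4 genes that were lower, because RUNX1 and the fusion share a DNA-binding domain that reads the letters TGTGGT or TGCGGT. The lines give the 250 bases before the RefSeq start site (GRCm38.p6), 5′ to 3′ on the strand of the gene, for Cxcr4 (chr1:128592300-128592549, minus strand), Cd44 (chr2:102901666-102901915, minus strand), Cxcr2 (chr1:74153744-74153993, plus strand) and Cx3cr1 (chr9:120068297-120068546, minus strand), with motif letters in capitals.
Cxcr4: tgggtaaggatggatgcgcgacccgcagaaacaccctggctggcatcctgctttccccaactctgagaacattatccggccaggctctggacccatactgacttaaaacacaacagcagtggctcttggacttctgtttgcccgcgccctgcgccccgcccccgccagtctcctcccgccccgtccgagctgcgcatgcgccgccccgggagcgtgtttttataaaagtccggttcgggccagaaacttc
Cd44: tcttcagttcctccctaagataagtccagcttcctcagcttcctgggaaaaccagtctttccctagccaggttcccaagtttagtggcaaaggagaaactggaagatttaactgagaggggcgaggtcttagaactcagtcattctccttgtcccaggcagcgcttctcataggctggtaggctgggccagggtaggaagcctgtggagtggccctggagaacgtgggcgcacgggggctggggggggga
Cxcr2: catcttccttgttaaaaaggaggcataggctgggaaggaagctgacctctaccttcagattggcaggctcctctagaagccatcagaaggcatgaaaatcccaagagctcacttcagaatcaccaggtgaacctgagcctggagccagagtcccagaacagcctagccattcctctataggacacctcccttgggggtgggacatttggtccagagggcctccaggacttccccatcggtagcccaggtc
Cx3cr1: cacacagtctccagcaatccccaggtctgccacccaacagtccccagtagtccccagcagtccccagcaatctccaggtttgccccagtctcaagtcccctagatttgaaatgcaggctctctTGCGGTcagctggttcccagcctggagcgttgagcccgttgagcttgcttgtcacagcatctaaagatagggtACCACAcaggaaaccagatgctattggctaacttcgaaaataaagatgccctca
Both motifs were searched on both strands in windows from 250 bases before to 50 after the start, for the 7 of the 9 genes with a RefSeq window (Selplg and S1pr1 had no match in the table). Cx3cr1 held TGCGGT at -127 and TGTGGT on the opposite strand at -54, where it reads ACCACA in the line above. Ccr1 held TGTGGT on the opposite strand at -58, and the windows of Cxcr4, Cd44, Cxcr2, Ccr2 and Ccr9 held neither. Of 32851 windows in the table, 22.4% held at least 1 of the motifs, so 2 of 7 is near what any window shows.

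The make-up of the chemokine receptor transcripts followed Cxcr4. Summed per kilobase of exon over 24 chemokine receptor genes, the controls had 202, 207, 153, 193 and 167 CPM per kilobase and the AML1/ETO libraries 70.4, 64.8 and 50.4. Without Cxcr4 the sums overlapped, at 17.4 to 30.0 in controls and 15.8 to 26.0 with the fusion, so the difference in the total lay in Cxcr4. Cxcr4 made up 85.1% to 90.9% of the sum in controls and 63.0% to 68.6% with the fusion. A read was found for 11 to 17 of the 24 genes in each control and for 6 or 7 with the fusion, and genes expected at 20 to 50 reads were at 0 in 41.4% to 51.1% of cases there, in 46.2% in control 1, which had the fewest receptors of the controls, and in 10.5% to 27.0% in controls 2 to 5.

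**Figure D3:**
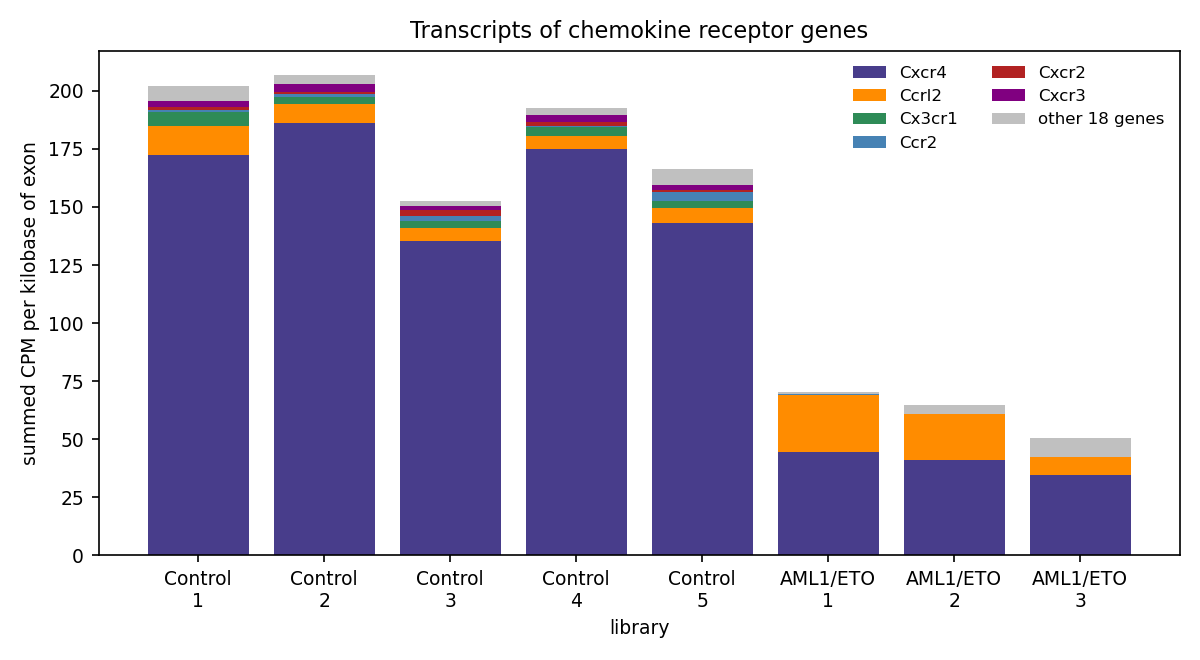
Summed CPM per kilobase of exon of 24 chemokine receptor genes (y axis) in each library (x axis), split by gene. Cxcr4 fills most of each bar and falls from 135 to 186 in controls to 34.6 to 44.4 with the fusion, and Ccrl2 is the next largest single gene in every library.

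Of 20 further receptor genes of the family, 8 were tested, 1 was called higher and 4 lower, beside 11.6% and 14.2% of all tested genes. The median log2 difference, with genes at 0 set at their bound, was -2.24, between the bounds of Ackr3 (-1.93) and Ccr7 (-2.54). The 4 lower genes passed the filter on low counts through the controls only. Among genes not tested, Cxcr1, Ccr1l1, Ackr1, Ackr2 and Ackr4 had the higher mean with the fusion. Ccr3, Ccr6, Ccr10 and Xcr1, also not tested, had reads in controls only. Ccrl2, a non-signalling receptor that presents chemerin, was at 64.2, 51.1 and 20.7 CPM with the fusion and at 33.3, 20.9, 14.2, 14.2 and 17.1 in controls. Its groups overlapped, and the log2 difference of 1.19 ± 0.39 (SE; edgeR adjusted p = 0.0426) no longer passed when any library other than AML1/ETO 3 or control 1 was left out (adjusted p of 0.068 to 0.172 in those 6 fits). Ccrl2 also lost the call without both first libraries (adjusted p = 0.0568), with library totals alone, with limma-voom and with a replicate block. In all it lost the call under 10 of 17 alternatives. Cxcr3, a receptor of effector T cells, Cxcr5, a receptor of follicular B cells, and Cmklr1, the chemerin receptor, each had 0 reads in all AML1/ETO libraries. Their control means were 4.68 ± 1.27, 5.12 ± 4.91 and 4.93 ± 1.13 CPM, at least 23.0-fold, 25.2-fold and 24.2-fold higher (edgeR adjusted p = 0.00271, 0.00609 and 0.00224). As for Cxcr2, a single 0 says little at this depth, and these bounds cover counting error only. Cxcr5 was uneven among controls, at 13.5 CPM in control 1 and 0.660 to 4.93 CPM in the others, and still passed without control 1 (adjusted p = 0.017). The fourth lower gene was Ccr7, at 1.19 ± 0.766 CPM in controls and 0 with the fusion (adjusted p = 0.0433), which lost the call without any single library except control 1 (adjusted p of 0.0585 to 0.109 in those 7 fits). Ccr7 and some other genes below were named after their values were seen.

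Levels of cell-type markers differed along with the receptors. The counts of called markers stand beside 14.2% of all tested genes called lower and 11.6% called higher. The summed level of 10 monocyte and macrophage markers was 56.9 to 72.4 CPM with the fusion and 162 to 299 in controls, with 5 of 9 tested markers lower; Cybb was at 0 in all AML1/ETO libraries, Csf1r had 34, 18 and 0 AML1/ETO reads against a control mean of 41.3 ± 20.1 CPM, and Lyz2 was at 36.9 ± 10.5 against 103 ± 28.8. Neutrophil markers summed to 174 to 1067 against 1157 to 2998 CPM, with 3 of 8 lower. Most of each sum was Mpo, at 172, 986 and 542 CPM with the fusion and 883 to 2268 CPM in controls. Its groups overlapped and it did not pass (edgeR adjusted p = 0.0721). Elane, one of the 3 lower markers, was at 0, 12.9 and 0 CPM against 123 to 458 CPM (edgeR adjusted p = 0.00462, and 1.45e-05 without AML1/ETO library 2). Elane lost the call under 1 of 17 alternative fits. S100a8 likewise had AML1/ETO reads in library 2 alone (0, 182 and 0) against a control mean of 34.2 ± 13.0 CPM, and passed without that library (adjusted p = 2.2e-05) but not with it (0.0852). The 10 B and plasma cell markers summed to 5.30 to 10.8 against 78.2 to 245 CPM, with 6 of 8 lower and 8 at 0 in all AML1/ETO libraries, Pax5 and Ebf1 among them. Of those at 0, Ms4a1 had no read in controls either, and Jchain had reads in controls 2 and 4 alone. As for Cxcr2, a single 0 says little at the depth of Pax5 and Ebf1. Among T and NK cell markers, Cd3e, Cd3d, Cd3g, Cd8a and Gzma were at 0 in all 8 libraries, and the list summed to 18.2 to 49.6 against 60.9 to 120 CPM, with 1 of 3 tested markers lower and 1 higher. The lower marker was Nkg7, at 5.16 ± 2.69 against 77.7 ± 21.5 CPM, which made up most of the control sum. Prf1 was higher, at 44.4, 8.87 and 10.7 against 0 to 4.07 CPM (log2 difference 3.84, edgeR adjusted p = 0.0175), but not past the threshold without AML1/ETO library 1 (2.72, adjusted p = 0.14) or both first libraries (2.40, adjusted p = 0.0628), and at 4.72 without control 3. The sum of mast cell and basophil markers went the other way, at 2522 to 6811 against 36.3 to 88.8 CPM, with 5 of 8 higher and 1 lower. Cpa3, at 3844 ± 2190 against 14.3 ± 5.87 CPM, made up most of each AML1/ETO sum. The lower marker was Prss34, at 0 against 5.47 ± 2.68 CPM (edgeR adjusted p = 0.00222), and Mcpt8 did not pass (adjusted p = 0.481). Dendritic cell markers summed to 552 to 764 against 517 to 711 CPM, with 1 of 8 higher and 4 lower. The higher one was Flt3, which LSK progenitors also express, at 517 ± 96.8 against 281 ± 58.9 CPM. Flt3 made up most of each AML1/ETO sum. The 4 lower ones were Irf8, at 12.6 ± 7.20 against 75.0 ± 28.5 CPM, Itgax, Cd74 and H2-Aa. Megakaryocyte markers summed to 548 to 1392 against 901 to 1142 CPM, with 1 of 8 higher and 3 lower, among them Vwf at 0 in all AML1/ETO libraries against 40.3 ± 9.67 CPM. Erythroid markers summed to 76.8 to 102 against 97.5 to 196 CPM (1 of 8 higher, 3 lower) and stromal and endothelial markers to 352 to 460 against 173 to 221 CPM (2 of 6 higher, 2 lower). Of the stromal and endothelial markers, Cxcl12, Lepr, Cdh5 and Kdr had no AML1/ETO read, so the AML1/ETO sums came from other genes of the list. Cdh5 had no read in controls either. The sort excluded lineage-positive cells, and the part of these markers in the receptor results was not tested.

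Chemokines that act on the 6 receptors, or close relatives of these, moved in both directions. Of 18 ligand genes 11 were tested, 3 rose and 3 fell, beside 11.6% and 14.2% of all tested genes. The median log2 difference of the list was -0.30. Cxcl2, a CXCR2 ligand, was at 378, 392 and 378 CPM with the fusion and at 7.69 to 31.0 CPM in controls, 21.9-fold higher (edgeR adjusted p = 9.92e-06). Ccl2, the main CCR2 ligand, was at 108, 38.9 and 245 CPM against 0 to 3.10 CPM (adjusted p = 3.34e-04, and a log2 difference of 6.51 that was 5.67 without AML1/ETO library 3 and 7.12 without both first libraries). Ccl4, an inflammatory chemokine, rose from 19.6 ± 11.4 to 95.4 ± 29.7 CPM (adjusted p = 0.00238). For these 3 genes every AML1/ETO library was above every control.

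The 3 ligands that fell were Ccl9, Cx3cl1 and Ccl5. Ccl9, a CCR1 ligand, was at 2.27, 0 and 1.24 CPM with the fusion and 39.8 to 108 CPM in controls, 53.7-fold lower (log2 difference -5.77, edgeR adjusted p = 3.33e-04); the log2 difference was -6.67 without AML1/ETO library 1, -5.17 without library 2 and -6.76 without both first libraries. Cx3cl1, the CX3CR1 ligand, was at 3.67 ± 3.69 against 61.8 ± 34.0 CPM, a log2 difference of -4.07 that was -5.13 without AML1/ETO library 2 (adjusted p = 0.00807 and 0.00496). Cx3cl1 lost the call under 1 of 17 alternative fits. Ccl5 had no AML1/ETO read against 6.16 ± 4.79 CPM, at least 30.3-fold lower (adjusted p = 0.00305), a bound with the same limit as that of Cxcr2. Cxcl12 itself was not tested, with 0 reads in all AML1/ETO libraries and in controls 2 and 3 and 10 to 11 reads in the other 3 controls. Ccl25, the CCR9 ligand, was at 3.10 ± 2.71 against 6.92 ± 3.06 CPM (adjusted p = 0.337).

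Among genes that carry or end the receptor signal, more rose than fell. Of 31 tested, 11 rose and 4 fell, beside 11.6% and 14.2% of all tested genes, so the share that fell was near that of all genes. With library totals alone used for scaling, 7 of the list rose and 5 fell. The median log2 difference was 0.20 against -0.09 for all tested genes. Rgs1, which speeds the shut-off of Gi proteins downstream of chemokine receptors, was at 1811 ± 178 CPM with the fusion and 240 ± 29.7 in controls, a log2 difference of 2.92 ± 0.14 (SE; edgeR adjusted p = 1.75e-07). Dpp4, a surface peptidase that inactivates CXCL12, was at 157, 96.2 and 69.3 CPM against 9.20 to 34.5 CPM (adjusted p = 7.54e-04). Plcb2, a phospholipase driven by Gi-coupled receptors, rose 3.64-fold (adjusted p = 6.06e-06), and Arrb1, a beta-arrestin that takes receptors off the surface, rose 1.97-fold (adjusted p = 0.00129). The receptor kinases Grk2 and Grk3, which mark active receptors for arrestin, rose 1.59-fold and 2.05-fold (adjusted p = 0.00222 and 0.00528). All 6 of these genes were above every control in each AML1/ETO library. The 4 genes that fell were below every control in each AML1/ETO library. They were Rgs16 (3.15-fold lower, edgeR adjusted p = 0.0205), Ptk2b (2.02-fold, 0.003), Pxn (1.54-fold, 0.0118) and Gnb1 (1.43-fold, 0.03).

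Cd44 (ENSMUSG00000005087, chr2:102811141-102901665, minus strand) was an abundant gene in controls and a moderately expressed one with the fusion. It was at 39.9, 32.2 and 31.5 CPM in AML1/ETO libraries 1 to 3 and at 422, 383, 336, 318 and 424 CPM in controls 1 to 5, with 481 to 527 and 5465 to 7396 reads. The 3 AML1/ETO libraries lay close together and the lowest control was several times above them. The means of 34.5 ± 4.67 and 377 ± 48.4 CPM gave a log2 difference of -3.45 with a standard error of 0.19 (edgeR adjusted p = 3.41e-07). Per kilobase of exon, Cd44 went from above 94.8% of tested genes in controls to above 50.02% with the fusion. Gene counts do not separate the splice forms of Cd44.

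Of 14 tested genes that act on CD44 or make, break or bind its ligand hyaluronan, 6 fell and 0 rose. The shares of all tested genes were 14.2% and 11.6%, and the list's median log2 difference was -0.54. Ezr, encoding ezrin, which ties the tail of CD44 to actin, was at 65.6, 75.2 and 97.6 CPM against 328 to 396 CPM, 4.498-fold lower (edgeR adjusted p = 6.22e-06). Its relative Msn (moesin) was more abundant, at 561 ± 59.8 against 486 ± 45.4 CPM, and did not pass (adjusted p = 0.310). Mmp14, a membrane protease that cleaves CD44, had no AML1/ETO read against 16.1 ± 5.49 CPM, at least 78.9-fold lower (adjusted p = 5.00e-05). Adam17, a sheddase, fell from 140 ± 25.5 to 66.1 ± 14.4 CPM (adjusted p = 0.00335). Esrp2, a splicing factor of epithelia, was at 0 against 1.84 ± 0.523 CPM (adjusted p = 0.0232), and lost the call without AML1/ETO library 3 or without both first libraries (adjusted p = 0.0503 in each).

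Selplg (ENSMUSG00000048163, chr5:113818536-113832644, minus strand), the backbone of the P-selectin ligand, did not differ beyond its spread. It was at 49.3, 114 and 100 CPM with the fusion and at 70.6, 112, 125, 144 and 107 CPM in controls, so that only AML1/ETO library 1 lay below all controls. The log2 difference was -0.35 with a standard error of 0.28 (edgeR adjusted p = 0.426), and it ran from -0.58 to -0.07 with libraries left out. The ratio of Cd44 to Selplg per kilobase of exon was 0.510, 0.179 and 0.198 with the fusion and 1.39 to 3.77 in controls.

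Of 17 tested selectin genes and enzymes that build selectin ligands, 5 fell and 1 rose, beside 14.2% and 11.6% of all tested genes. The list's median log2 difference was -0.74. Selp (P-selectin), the partner of PSGL-1, was at 3.37 ± 4.95 against 36.6 ± 5.98 CPM, a log2 difference of -3.42 that was -6.05 without AML1/ETO library 2 (edgeR adjusted p = 0.0161 and 7.67e-05). Among the enzymes, B4galt1, a galactosyltransferase, fell 5.12-fold and Gcnt1, which starts the core 2 branches that P-selectin needs on PSGL-1, fell 2.48-fold (adjusted p = 2.12e-05 and 4.96e-04). St3gal4, a sialyltransferase of selectin ligands, went the other way, from 27.0 ± 4.97 to 80.9 ± 18.7 CPM (adjusted p = 4.77e-04). The other E-selectin ligand Glg1 was at 225 ± 33.3 against 173 ± 24.0 CPM (adjusted p = 0.117).

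S1pr1 (ENSMUSG00000045092, chr3:115710433-115715072, minus strand) was the one gene of the 9 with a higher mean in the AML1/ETO libraries, and the difference did not pass. It was at 210, 95.1 and 65.1 CPM with the fusion and at 46.7, 80.6, 75.1, 84.7 and 63.8 CPM in controls. AML1/ETO library 1 stood above all others, and library 3 lay within the controls. The means were 124 ± 76.7 and 70.2 ± 15.3 CPM and the log2 difference 0.81 with a standard error of 0.33 (edgeR adjusted p = 0.0892). It was 0.18 without AML1/ETO library 1 (adjusted p = 0.642) and 0.07 without both first libraries (0.849), whereas leaving out AML1/ETO library 3 brought it past the threshold (1.11, adjusted p = 0.0212), as did DESeq2 (0.89, adjusted p = 0.0421).

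Of 13 tested genes of sphingosine 1-phosphate receptors, metabolism and regulation, 2 rose and 2 fell, near the 11.6% and 14.2% of all tested genes. The list's median log2 difference was -0.33. Cd69, whose product binds S1PR1 and takes it off the surface, was at 456, 636 and 651 CPM against 55.6 to 97.8 CPM, 7.24-fold higher (edgeR adjusted p = 2.27e-06). Klf2, a transcription factor that drives S1pr1 in T cells, was at 74.0, 343 and 434 CPM against 11.6 to 45.3 CPM (log2 difference 3.18, adjusted p = 6.99e-04, and 3.80 without both first libraries). The order of the AML1/ETO libraries was opposite for Klf2 and S1pr1: library 1 was lowest for Klf2 and highest for S1pr1. S1pr2, a receptor that restrains migration, fell from 36.9 ± 13.0 to 12.8 ± 3.98 CPM (adjusted p = 0.00767). S1pr3 had no AML1/ETO read against 8.45 ± 2.55 CPM, at least 41.5-fold lower (adjusted p = 4.24e-04), and S1pr4 was at 49.0 ± 9.39 against 55.7 ± 14.7 CPM (adjusted p = 0.674).

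Of 24 further adhesion genes of homing, all tested, 4 rose and 6 fell, beside 11.6% and 14.2% of all tested genes. The list's median log2 difference was -0.32. Itga4, the alpha chain of the integrin VLA-4 that binds VCAM-1 in the marrow, was at 411 ± 23.8 against 173 ± 35.5 CPM, 2.37-fold higher (edgeR adjusted p = 4.31e-04). Its beta chain Itgb1 was at 147 ± 30.7 against 241 ± 8.02 CPM, 1.64-fold lower (adjusted p = 0.00712). Fermt3 (kindlin-3) and Fyb (ADAP), which help to activate integrins, rose 2.42-fold and 2.32-fold (adjusted p = 6.31e-05 and 0.00349). Spn (CD43), a sialomucin that also binds E-selectin, fell 2.39-fold (adjusted p = 0.00177).

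**Figure D4:**
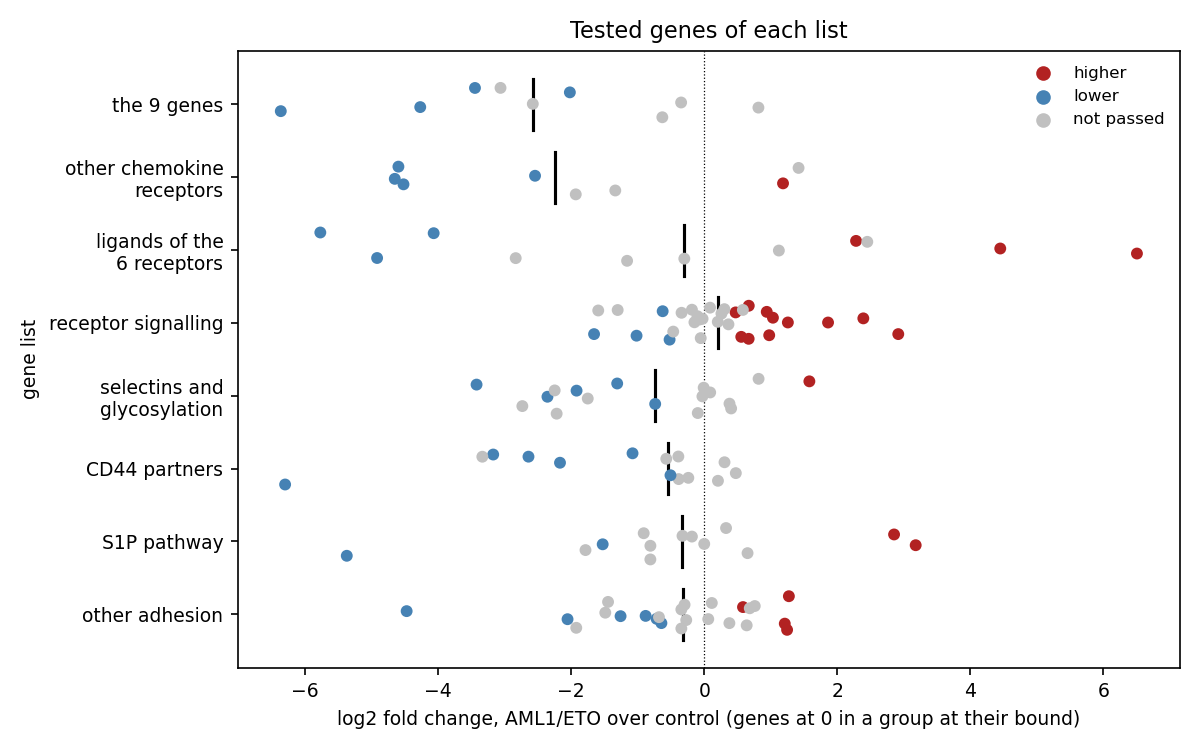
Log2 fold change, AML1/ETO over control (x axis), of each tested gene in 8 lists (y axis), with genes at 0 in a group at their bound, red for called higher, blue for called lower, grey for not passed and a black bar at the list's median. The median of the 9 genes is -2.58, which is the bound of Ccr1, and that of the receptor signalling genes is 0.20.

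Compared per length, the order of the 9 genes differed between the groups. In controls Cxcr4 was highest, at 135 to 186 CPM per kilobase over the 5 libraries, then Cd44 at 47.0 to 62.6, with no overlap between them or with the next. Selplg (16.5 to 33.7) and S1pr1 (15.3 to 27.8) overlapped, and Cx3cr1 (2.85 to 5.74), Ccr2 (0.723 to 3.84), Cxcr2 (0.770 to 2.38), Ccr1 (0 to 1.21) and Ccr9 (0 to 0.280) lay below them, each overlapping its neighbour. With the fusion S1pr1 (21.4 to 69.1), Cxcr4 (34.6 to 44.4) and Selplg (11.5 to 26.6) came first, S1pr1 overlapping both of the others and Cxcr4 above Selplg in each library. Cd44 (4.64 to 5.89) lay below those 3, Ccr2 (0 to 0.470) and Ccr9 (0 to 0.244) were near 0, and Cx3cr1, Cxcr2 and Ccr1 had no read. The ratio of Cxcr4 to S1pr1 per kilobase was 0.643, 1.32 and 1.62 with the fusion and 5.49 to 11.2 without.

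Ccr9, Ccr1 and Ccr2 lie in a cluster of receptor genes on chromosome 9. Of 15 listed genes of the region, Ccrl2 apart from the rest at chr9:111054486-111057519, 11 were tested. Of these 2 rose and 0 fell, beside 11.6% and 14.2% of all tested genes, and their median log2 difference was -0.14. Over the alternatives 0 to 2 rose and 0 to 1 fell. Besides Ccrl2, the riser was Fyco1, an autophagosome transport gene, at 50.9 ± 12.9 against 23.2 ± 8.21 CPM (edgeR adjusted p = 0.0182), which lost the call without AML1/ETO library 3 (0.0696) and without both first libraries (0.0628). Lztfl1, which lies within the span of Ccr9, was at 15.3 ± 6.49 against 27.1 ± 3.55 CPM (adjusted p = 0.0894, and 0.0345 without AML1/ETO library 3). Cxcr6, Lars2, Limd1 and Sacm1l did not pass, with log2 differences of -1.34, 0.41, 0.25 and -0.14.

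The genes whose profile over the 8 libraries was most like that of each homing gene were found by the root mean square difference of centred log2 CPM, among 9614 genes with a mean of at least 5 CPM. For Cxcr4 they were Runx3 (a difference of 0.0923 log2 units), Clic4 (0.109) and Ankrd50 (0.132). For Cd44 they were Rnf19b (0.167), Slc45a4 (0.221) and Rab11fip1 (0.263), and for Cx3cr1 they were Unc5b (0.208), Mycn (0.289) and Cd276 (0.311), all 3 of which had 0 CPM in the AML1/ETO libraries. Selplg was followed most closely by Bcas2 (0.156), Tsnax (0.157) and Glce (0.169), and S1pr1 by Dcaf6 (0.219), Rabgap1 (0.219) and Dennd1b (0.235). The closest genes were further off for Ccr2 (Them6, 0.473), Cxcr2 (Chad, 0.537), Ccr9 (Dolk, 1.001) and Ccr1 (Dscc1, 1.20). Runx3, a paralogue of Runx1, was at 123 against 491 CPM, a log2 difference of -1.99.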

How the data were processed

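The values are raw counts per gene, deposited by the authors as 1 table in which each library has its own column, and per the submitters' processing notes the reads were aligned with HISAT2 2.0.5 and counted with featureCounts 1.5.0-p3 on mm10. The annotation release, strand setting and treatment of multiply aligned reads were not stated in what was available here. Per the labels' protocols, RNAiso Plus was used for extraction and a NEBNext Ultra kit for the libraries. GENCODE M21 (GRCm38) supplied coordinates and exon lengths, matching 54409 of 54532 identifiers; 123 did not match and 32927 genes had no read.

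The deposited counts entered edgeR 4.0.16, run in R 4.3.3 (filterByExpr, TMM scaling, glmQLFit and glmQLFTest, all 8 libraries, no covariates, two-sided, Benjamini-Hochberg over 15009 genes, threshold 0.05). The code was tried on counts simulated from the fitted model, which cannot show how well that model suits these libraries. CPM uses TMM-scaled totals. Standard errors come from the F statistic. A group at 0 was given a floor of 3 reads per library, and this covers counting error only. No libraries were duplicates of each other: within groups the chi-square per degree of freedom between libraries was at least 24.9. Alternatives were DESeq2 1.42.0, limma-voom 3.58.1, other scalings and filters, a replicate block, and libraries left out. The naming rule took the 9 genes, up to 4 genes per list with the smallest p, every tested gene of the chromosome 9 cluster, 3 genes per homing gene with the most similar profile, and markers needed beside a result. Grk2, Grk3, Cx3cl1, Ccl5, Ccl25, Itgb1, S1pr4, Selp, Glg1, Ccr7, Msn, Cxcl12, Mpo, Ackr3 and the further receptor genes not tested fell outside it and were named after their values were seen. The same holds for Rgs16, Ptk2b, Pxn, Gnb1, Prss34, Mcpt8, Ms4a1, Jchain, Itgax, Cd74, H2-Aa, Lepr, Cdh5 and Kdr. Some genes that the rule took are left out of the text. The 9 genes, the lists and the rules were chosen with earlier results of these data known.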

Additional observations from a re-analysis of the deposited data

Results flagged for a closer look

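Among the named genes, 78 groups of 5 control libraries were examined for a library far from the others, and 3 were marked, where chance marks about 1 in 20. Cmklr1 was at 2.97 CPM in control 3 and at 4.95 to 5.67 CPM in the other 4 controls, a gap of 0.732 of the group's range. Plcb2 was at 193 CPM in control 4 and at 141 to 154 CPM in the other 4, a gap of 0.747 of the range. Nkg7 was at 114 CPM in control 3 and at 60.9 to 74.8 CPM in the other 4, a gap of 0.740 of the range.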

How the results depend on the processing

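Cxcr4, Cd44 and Cx3cr1 stayed lower and past the threshold under all 17 alternatives, with log2 differences of -2.17 to -1.93 for Cxcr4 and -3.60 to -3.37 for Cd44, and Cxcr2 under 16 of 17. Under the replicate block 951 genes were higher and 1098 lower against 1734 and 2128, Cxcr2 lost its call (adjusted p = 0.124), leaving 3 of the 9 genes lower, and 0 of the 20 other chemokine receptors were called. Deviations of same-numbered libraries correlated at 0.0388, -0.039 and 0.0271, and those of different-numbered ones at -0.0865 to 0.0652. No pairing by number was seen, but a small shared effect could be missed with so few libraries. With DESeq2, 2135 genes were higher and 2566 lower, and of the 9 genes 1 was called higher (S1pr1) and 5 lower (Ccr2 added). With libraries left out, higher genes ranged from 1385 to 1760, lower genes from 1537 to 2350, homing genes called higher from 0 to 1 and lower from 4 to 5. Library totals alone shifted the median of all genes by -0.146 and gave 34.2% of calls as higher, against 44.9% as reported. The log2 difference of Sacm1l was -0.14 as reported, ran down to -0.33 with 1 library left out and to -0.36 without both first libraries, and reversed to 0.12 without AML1/ETO library 3. Over the alternatives, calls among the lists ranged from 0 to 4 lower for the other receptors, 1 to 4 lower for the ligands, 7 to 12 higher and 2 to 5 lower for signalling, 4 to 6 lower for selectins and enzymes, 3 to 7 lower for CD44 partners, 0 to 2 higher and 0 to 1 lower for the chromosome 9 cluster, 2 to 4 in each direction for the S1P genes and 2 to 7 lower for other adhesion genes; the cause of these shifts was not tested. Outside the 9 genes, Csf1r, Elane, Cx3cl1, Ccl5, Cxcr3, Cmklr1, Pax5, Ebf1 and Itgb1 each lost the call under 1 of 17 alternatives. Cxcr5 and Fyco1 lost it under 2, Prf1 under 3, Esrp2 under 4, Ccrl2 under 10 and Ccr7 under 11 of 16. Low counts limit Ccr9, Ccr1, Ccr2 and Cxcr2, for which a difference could be missed at this depth.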
